A study of Mus musculus with 10 samples.

Results

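The genes described here are 8 components of the complement system (*C1qa*, *C1qb*, *C1ra*, *C1s1*, *C3*, *C4b*, *Cfb* and *C3ar1*) together with *Clu*, the gene for clusterin, so 9 of the 770 genes counted in mouse melanomas by the NanoString PanCancer Immune Profiling panel. They were taken by symbol, and all 9 symbols were found. They were selected on earlier results of the same comparison of genotypes that is described below, so the genotype differences of these 9 genes are given as a description, without a test.

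NanoString counts RNA molecules with color-coded probes, without amplification. RNA came from 10 tumors of YUMMER1.7 cells, a mouse melanoma line, of which 5 grew in Siah2 WT mice and 5 in Siah2 KO mice, and all were collected at day 11 after injection by the sample labels. *Siah2* encodes a ubiquitin ligase. The labels and the methods place its loss in the host mouse, and the same cells were injected in both groups. The study describes its mice as young C57BL/6 males and the deletion of *Siah2* in the KO hosts as global, and no treatment other than the injection is labelled. The panel has no probe for *Siah2*, so the genotype could not be checked in the values. The short design text of the series names another melanoma line, another host genotype and another day than all 10 sample labels, and the sample labels were followed.

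The RNA of a tumor comes from injected and host cells alike, and a lower value can come from fewer cells of a type or from less RNA per cell, which cannot be told apart here. The tissue label, melanoma, rests on few probes of this panel: *Cspg4*, carried by melanoma cells and pericytes, had 198 ± 62.3 (SD, n = 5) normalized counts in KO and 350.3 ± 52.2 in WT tumors, and *S100b* had at most 26.7 in any tumor. Signal before normalization summed to between 382853 and 581551 per tumor over the 770 genes, and the scaling factors of the tumors ran from 0.9175 to 1.6. The negative control probes reached at most 10.72.

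Complement is a cascade of blood and tissue proteins that marks surfaces for uptake and recruits leukocytes. C1q, the recognition part of the C1 complex, activates the proteases C1r and C1s, which cleave C4 and C2 to form a convertase that cleaves C3, and factor B builds the convertase of the alternative pathway, which amplifies C3 cleavage. C3a, the small fragment of C3, acts on the receptor C3ar1. Clusterin is a secreted chaperone that also binds the late complement proteins and limits the membrane attack complex. In tumors C1q is made mainly by macrophages, while fibroblasts, endothelium and tumor cells can make C1r, C1s, C3, C4 and factor B, and the liver is the main source of the circulating proteins.

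The promoters of *C1ra*, *C1s1* and *C3* are shown because these genes encode the proteases of C1 and the central component, and because *C1ra* and *C3* varied together between tumors of one genotype, as described below. The sequences hold 250 bases before and 50 bases after the start of the transcript, from RefSeq on GRCm38.p6, at chr6:124512371-124512670 on the + strand (*C1ra*), chr6:124542310-124542609 on the - strand (*C1s1*) and chr17:57228087-57228386 on the - strand (*C3*). Capitals mark matches to TTGCNNAA, letters common in C/EBP sites, and in *C1ra* also the match to TTCNNNGAA, the core of the gamma-activated sequence of interferon gamma responses.

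C1ra: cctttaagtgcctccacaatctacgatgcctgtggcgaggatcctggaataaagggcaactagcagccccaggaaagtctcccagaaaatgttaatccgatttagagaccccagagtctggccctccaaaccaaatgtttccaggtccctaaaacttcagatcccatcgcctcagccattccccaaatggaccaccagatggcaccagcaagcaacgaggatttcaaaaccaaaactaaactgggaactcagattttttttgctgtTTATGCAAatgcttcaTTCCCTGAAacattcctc

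C1s1: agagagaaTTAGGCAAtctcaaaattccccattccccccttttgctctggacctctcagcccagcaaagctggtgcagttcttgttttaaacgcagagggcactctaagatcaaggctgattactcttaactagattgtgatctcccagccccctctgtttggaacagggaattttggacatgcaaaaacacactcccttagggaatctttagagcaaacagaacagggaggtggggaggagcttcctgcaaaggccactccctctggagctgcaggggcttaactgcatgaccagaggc

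C3: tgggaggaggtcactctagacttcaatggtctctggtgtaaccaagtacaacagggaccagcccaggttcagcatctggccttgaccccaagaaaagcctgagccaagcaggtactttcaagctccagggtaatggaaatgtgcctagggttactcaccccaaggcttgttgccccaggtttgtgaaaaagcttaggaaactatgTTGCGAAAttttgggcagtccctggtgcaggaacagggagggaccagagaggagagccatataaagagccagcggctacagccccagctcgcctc

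The table held 6 promoters of 5 of the 9 genes (*C1qb*, *C1ra*, *C1s1*, *C3* and *C3ar1*), with 2 for *C1s1*. The letters TTGCNNAA were found on either strand in 3 of the 6, and in 10.8% of the 32851 promoters searched, which did not cover every chromosome. The letters TTCNNNGAA were found in 1 of the 6, that of *C1ra*, and in 8.30% of all promoters searched. In *C1ra* the TTGCNNAA match starts at base 17 and the TTCNNNGAA match at base 33 of the transcript, and they do not overlap. Counted from the transcript start, the TTGCNNAA match begins at -242 in *C1s1* and at -45 in *C3*. The other *C1s1* promoter, at chr6:124542272-124542571 on the - strand, held no match. The match in *C1s1* thus depends on which transcript start is used. GAAANNGAA, part of the interferon-stimulated response element, was found in 0 of the 6 and in 8.56% of all promoters searched. A match is a run of letters and does not show that a factor binds there.

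Several of the 9 genes lie side by side. In the order of protein-coding genes on GRCm38.p6, *C1qa* and *C1qb* on chromosome 4 are separated by 1 gene, *C1qc*, which also encodes a C1q chain and is not on the panel. *C1ra* and *C1s1* are neighbors on chromosome 6 and are followed by their copies *C1rb* and *C1s2*. *Cfb* is the neighbor of *C2* on chromosome 17, with 5 genes between *Cfb* and *C4b*. *C4b* has a similar copy in *C4a*, and *C1ra* and *C1s1* have theirs in *C1rb* and *C1s2*. None of these 3 copies has a probe of its own on the panel, and whether the probes tell them apart was not tested.

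In tumors of Siah2 KO mice all 8 complement components had a higher mean than in WT tumors with the deposited scaling, by 1.16-fold for *C1qa* to 1.81-fold for *C3ar1*, although *C1qa* and *C1qb* changed direction under another scaling, and *Clu* was 3.76-fold higher in WT tumors. *Cfb* and *C3ar1* were higher in every KO tumor than in any WT tumor, and *Clu* was lower in every KO tumor. The normalized counts were higher in KO tumors for most of the panel, with a median log2 difference over all 770 genes of 0.24. Each difference below is to be read beside that median. Fold values here are on the log2(value + 1) scale and are given as Siah2 KO over WT. Values per tumor are normalized counts, listed in the order of replicates 2, 3, 4, 5 and 6 for WT and 1, 2, 3, 5 and 6 for KO, and no value of one probe is set against that of another, because probes differ in efficiency.

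**Figure D1:**
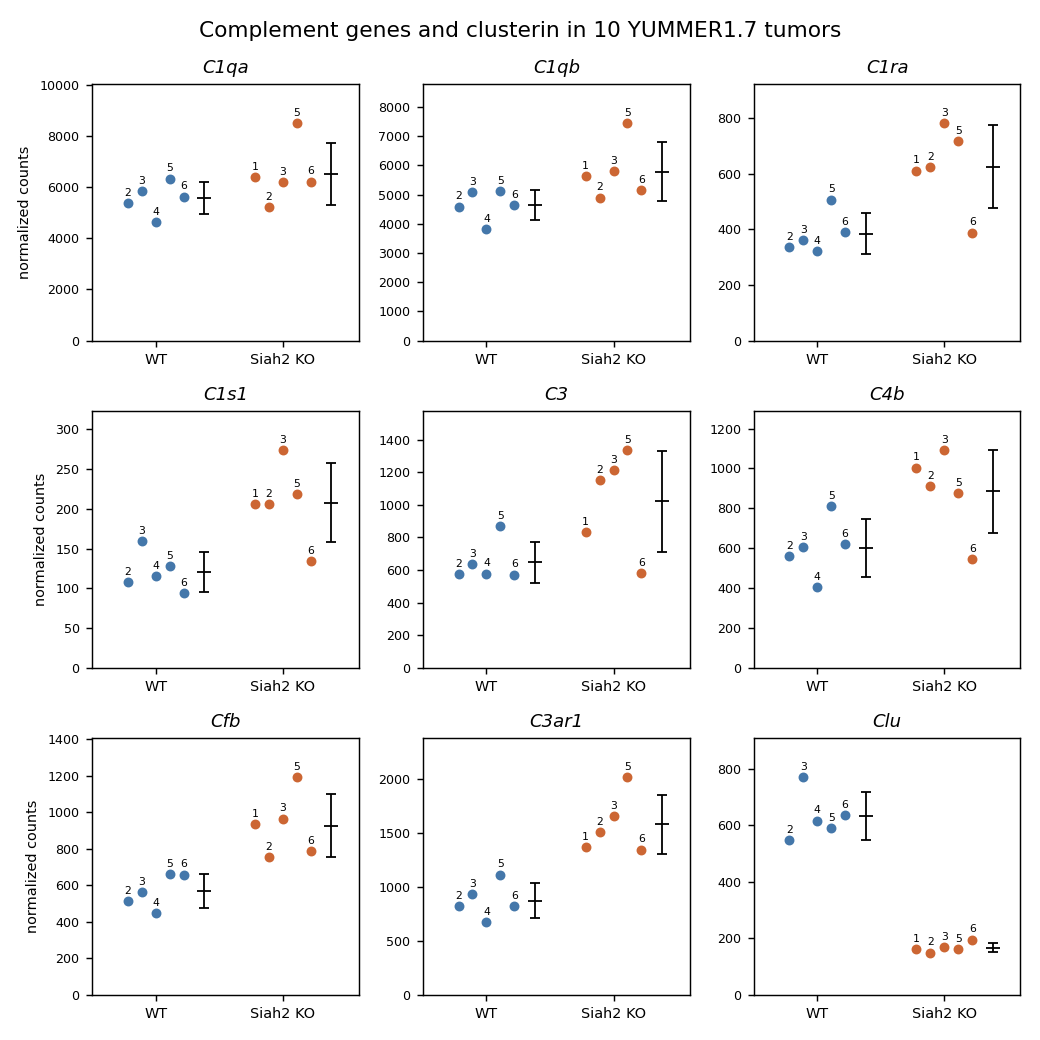
Normalized counts (vertical axis, starting at 0) of the 8 complement components and *Clu* in 5 WT and 5 Siah2 KO tumors (horizontal axis), one panel a gene. Points are tumors with their replicate number, and the bar is the mean with its SD over 5 tumors. The groups of *Cfb*, *C3ar1* and *Clu* do not overlap, and KO replicate 6 lies among the WT tumors for *C1ra*, *C1s1*, *C3* and *C4b*.

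Among the genes of the C1 complex, the C1q chains differed least. *C1qa*, the A chain of C1q, had 5373, 5849, 4645, 6331 and 5631 normalized counts in WT tumors and 6394, 5226, 6212, 8517 and 6214 in KO tumors. The groups overlapped, with 2 of 5 KO tumors above the highest WT tumor and KO replicate 5 highest. The means were 5566 ± 624 (SD, n = 5) in WT and 6513 ± 1211 in KO tumors, a log2 difference of 0.22 with a standard error of 0.14, which is close to the median of all genes.

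*C1qb*, the B chain, had 4590, 5075, 3821, 5109 and 4641 normalized counts in WT tumors and 5629, 4896, 5809, 7457 and 5156 in KO tumors. Here 4 of 5 KO tumors lay above the highest WT tumor, while KO replicate 2 lay among the WT tumors. Its log2 difference was 0.31 (SE 0.13), also close to the median of all genes. For both chains the tumor lowest of all was WT replicate 4 and the highest KO replicate 5.

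The protease genes *C1ra* and *C1s1* showed larger differences than the C1q chains. *C1ra*, which encodes the protease that activates C1s, had 337, 362, 323, 508 and 391 normalized counts in WT tumors and 612, 625, 784, 719 and 389 in KO tumors. KO replicates 1, 2, 3 and 5 lay above the highest WT tumor, and KO replicate 6 lay between WT replicates 3 and 6. The log2 difference was 0.68 (SE 0.2), or 1.61-fold, and 0.84 without KO replicate 6.

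*C1s1*, which encodes the protease that cleaves C4 and C2, had 108, 159, 115, 128 and 93.4 normalized counts in WT tumors and 206, 206, 274, 218 and 134 in KO tumors. The same KO tumor, replicate 6, was the lowest of its group and the only one below the highest WT tumor, replicate 3. The log2 difference was 0.77 (SE 0.2), or 1.70-fold, and 0.91 without KO replicate 6.

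*C4b*, *C3* and *Cfb*, the components that form or are cleaved by the convertases, were also higher in KO tumors on average. *C4b* had 562, 604, 404, 809 and 619.7 normalized counts in WT tumors and 1004, 909.9, 1092, 877 and 545 in KO tumors. KO replicate 6 was lower than all WT tumors but replicate 4, whereas the other 4 KO tumors lay above every WT tumor. The means were 599.7 ± 145 (SD, n = 5) and 886 ± 208, a log2 difference of 0.56 (SE 0.22), which was 0.72 without KO replicate 6.

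*C3*, the component on which the pathways meet, had 577, 638, 577, 869.5 and 572 normalized counts in WT tumors and 831, 1150, 1214, 1337 and 581 in KO tumors. Only KO replicates 2, 3 and 5 were above the highest WT tumor, which was replicate 5 and stood apart from the other 4 WT tumors. KO replicate 6 was at the level of those 4. *C3* had the widest spread of the 9 genes within KO tumors, with a coefficient of variation of 30.3%. Its log2 difference was 0.62 (SE 0.23), or 1.53-fold, and 0.81 without KO replicate 6.

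*Cfb*, the factor B gene, separated the genotypes. Its normalized counts were 512, 561, 448, 662 and 658 in WT tumors and 936, 755, 965, 1192 and 786 in KO tumors. The lowest KO tumor, replicate 2, lay above the highest WT tumor, replicate 5. The means were 568 ± 93.0 (SD, n = 5) and 927 ± 174, a log2 difference of 0.70 (SE 0.16), or 1.63-fold.

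*C3ar1*, the receptor for C3a on myeloid cells, had the highest ratio among the 8 components. WT tumors held 824, 933, 670.1, 1114 and 819 normalized counts and KO tumors 1367, 1505, 1658, 2015 and 1344. All KO tumors, the lowest being replicate 6, lay above the highest WT tumor, replicate 5. The means were 872 ± 164 (SD, n = 5) and 1578 ± 275, a log2 difference of 0.86 (SE 0.16), or 1.81-fold.

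*Clu* went the other way. WT tumors held 547, 770.1, 616, 591 and 636 normalized counts and KO tumors 162, 149.8, 168, 161 and 195. The KO tumors were close to one another, with a coefficient of variation of 10.2%, the smallest of the 9 genes among KO tumors, and the highest of them lay far below the lowest WT tumor. The means were 632 ± 84.0 (SD, n = 5) and 167 ± 17.1, a log2 difference of -1.91 (SE 0.11), and 3.76-fold higher in WT.

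In the limma fit over all 770 genes, with p adjusted by the Benjamini-Hochberg method, 5 of the 9 genes passed an adjusted p of 0.05, of which 4 were higher (*C1ra*, *C1s1*, *Cfb* and *C3ar1*) and 1 lower (*Clu*). Over the whole panel 41.0% of genes passed, 31.3% higher and 9.74% lower in KO tumors, and 24.5% were without overlap and higher and 7.01% without overlap and lower. Since the 9 genes were selected on this comparison, nothing is read from their count. Their median log2 difference was 0.62, beside 0.24 over all genes. The outcome for *C3* and *C4b* rested on single tumors, since the count was 7 with both of them added when KO replicate 6 or WT replicate 5 was left out.

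The other complement genes of the panel are given next. Of 37 further genes listed, 26 were on the panel, and 14 of these averaged 20 normalized counts or more. Among the 26, 9 were higher in KO tumors at an adjusted p under 0.05 (limma), beside 31.3% of all 770 genes. The median log2 difference of the 26 was 0.24, the same as over all genes. In 7 of the 26 every KO tumor was above every WT tumor, beside 24.5% of all genes. Both counts are near the share of the panel, and nothing is read from them.

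**Figure D2:**
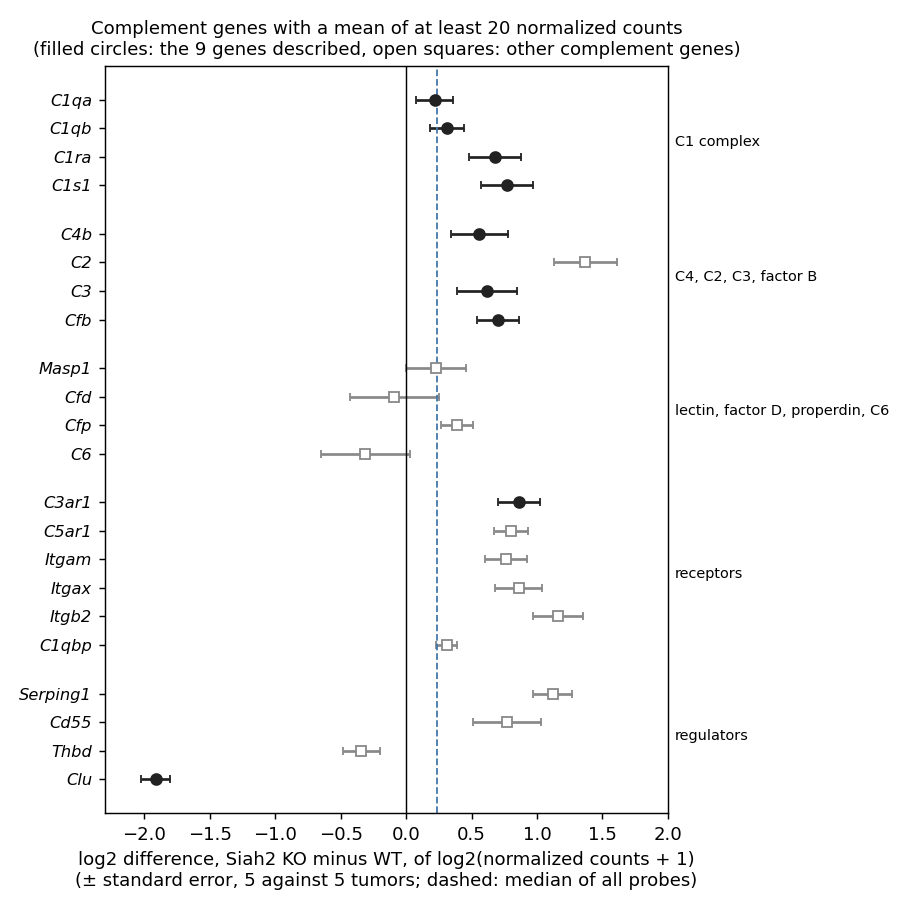
Log2 difference between Siah2 KO and WT tumors (horizontal axis, ± standard error, 5 against 5 tumors) for the 9 genes described (filled circles) and other complement genes averaging 20 normalized counts or more (open squares), by role. The dashed line is the median of all 770 genes, 0.24. *C2*, at 1.37, is farthest to the right and *Clu*, at -1.91, farthest to the left.

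*C2*, the partner of C4b in the classical C3 convertase and the neighbor of *Cfb*, showed the highest log2 difference of the complement genes. Its normalized counts were 47.3, 26.7, 42.5, 74.9 and 53.9 in WT tumors and 118, 102, 136, 155 and 105 in KO tumors. The groups did not overlap. The log2 difference was 1.37 (SE 0.24, limma adjusted p = 0.0018), or 2.58-fold. *Cfp*, the gene for properdin, which stabilizes the alternative convertase, rose by 0.39 on the log2 scale (SE 0.12, limma adjusted p = 0.024). This call on *Cfp* was lost under the 3 other scalings tried and when WT replicate 2, WT replicate 6 or KO replicate 3 was left out. *Masp1*, a protease of the lectin pathway, and *Cfd*, factor D, had log2 differences of 0.23 and -0.09 and did not pass (limma adjusted p = 0.44 and 0.85).

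Receptors of myeloid cells were among the other genes that rose. *C5ar1*, the receptor for C5a, had 486, 555, 481, 574 and 416 normalized counts in WT tumors and 812, 833, 895, 1086 and 748 in KO tumors, a log2 difference of 0.80 (SE 0.13, limma adjusted p = 0.0011). The subunits of complement receptors 3 and 4, which bind cleaved C3, were higher in every KO tumor too. *Itgb2*, their shared beta chain, rose from 667 ± 133 (SD, n = 5) to 1502 ± 371 normalized counts, a log2 difference of 1.16 (limma adjusted p = 0.0011). *Itgam*, the alpha chain of receptor 3, rose by 0.76 and *Itgax*, that of receptor 4, by 0.86 on the log2 scale (limma adjusted p = 0.0039 and 0.0038). The calls on *C5ar1*, *Itgam* and *Itgax* were lost with positive control scaling, where their log2 differences were 0.63, 0.59 and 0.70. *C1qbp*, which encodes a largely mitochondrial protein that binds C1q, rose by 0.31 (limma adjusted p = 0.0079), close to the median of all genes. This call on *C1qbp* was lost under the 3 other scalings, with log2 differences of 0.04 (median), -0.03 (quantile) and 0.15 (positive controls).

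Beside these receptors the macrophage markers were split. *Cd68*, *Msr1* and *Cd14* rose by 0.87, 0.92 and 0.73 on the log2 scale, whereas *Cd163* and *Mrc1* fell by 1.86 and 0.89 (limma adjusted p from 8.2e-04 to 0.017). The defining markers *Emr1*, which encodes F4/80, and *Csf1r* did not pass, at 0.27 and -0.02. Of the 10 macrophage genes, 3 were higher and 2 lower, beside 31.3% higher and 9.74% lower over all genes. Their median log2 difference was 0.06, beside 0.24 over all genes. Their summed normalized counts ran from 18517 to 34989 in KO and from 18878 to 24838 in WT tumors. Such sums are carried mostly by the probes with the highest counts, here *Lyz2*, with means of 16060.3 in KO and 14214 in WT tumors. For neutrophils 1 of 7 genes passed, *Csf3r*, higher by 0.95, beside 41.0% of all genes that passed in either direction. Only 2 of the 7 averaged 20 normalized counts or more, so nothing is read from this count. All 7 log2 differences were above 0, with a median of 0.49 beside 0.24 over all genes. The defining marker *S100a8* was at 0.49 and did not pass (limma adjusted p = 0.19). The neutrophil sums were 239.8 to 626 in KO and 216 to 266 in WT tumors. The part of these cells in the values of *C1qa*, *C1qb*, *C3ar1* and the integrins was not tested.

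Regulators were among the genes that rose. *Serping1*, the C1 inhibitor, which blocks C1r and C1s, had 215, 239, 241, 254 and 267 normalized counts in WT tumors and 501, 484, 604, 704 and 401 in KO tumors. No KO tumor reached down to the WT values, and the log2 difference was 1.12 (SE 0.15, limma adjusted p = 4.6e-04), or 2.18-fold. *Cd55*, a membrane protein that speeds the decay of convertases, rose by 0.77 (SE 0.26, limma adjusted p = 0.036) from 29.8 ± 11.6 to 49.5 ± 10.1 (SD, n = 5), a call that was lost under the 3 other scalings and when any 1 of WT replicates 2, 3 and 4 or KO replicates 1, 2, 3 and 6 was left out. *Thbd*, thrombomodulin, had a log2 difference of -0.34 and did not pass (limma adjusted p = 0.080). It did pass, as lower in KO tumors, with median scaling, with quantile normalization and when WT replicate 2 was left out.

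Most genes of the terminal pathway, which forms the membrane attack complex, had values at or near the floor. *C6* was at the floor in 0 of the 10 tumors. It averaged 31.5 normalized counts over them and did not pass (log2 difference -0.31, limma adjusted p = 0.50). *Hc*, the gene for C5, was at the floor in 7 of 10 tumors, *C8a* in 9 and *C9* in 10, and *C7*, *C8b* and *C8g* averaged under 20. The same held for *Masp2*, *Mbl2*, *Cr2*, *Cfi*, *Cd46* and *Cd59b*. For these 12 genes no difference was detectable at this depth.

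Most fibroblast markers were lower in KO tumors, as *Clu* was. *Fap* fell by 1.97, *Col3a1* by 0.74, *Fn1* by 0.74, *Col1a1* by 0.41 and *Pdgfrb* by 1.0 on the log2 scale (limma adjusted p from 1.8e-04 to 0.025), while *Thy1*, which T cells also carry, rose by 0.71. Their summed normalized counts, 18236 to 22954 in KO and 29837 to 39455 in WT tumors, did not overlap, and came mostly from *Col3a1* and *Fn1*. The median log2 difference of the 6 genes was -0.74, beside 0.24 over all genes. Of the 6, 1 was higher and 5 lower, beside 31.3% higher and 9.74% lower over all genes. Among the 4 melanoma or melanocyte genes, *Cspg4* fell by 0.87 and *S100b* fell by 2.39 on the log2 scale, beside 9.74% of all genes that were lower. *S100b* averaged 1.72 normalized counts in KO tumors, near the floor, which limits its difference. *Mcam* and *Kit* did not pass, at -0.17 and 0.52 (limma adjusted p = 0.36 and 0.058). The sums of the 4 genes were 251 to 442 in KO and 454 to 623 in WT tumors. Of 8 endothelial genes, *Pecam1* rose by 0.88, *Cdh5* and *Vwf* fell by 0.45 and 0.79, and the other 5 did not pass. The median of the 8 was -0.24, beside 0.24 over all genes. The endothelial sums overlapped, at 3494 to 4345 in KO and 3519.7 to 4005 in WT tumors, and came mostly from *Cd34*. The part of these cells in the values of *Clu*, *C1ra*, *C1s1* and *C3* was not tested. The 5 liver genes summed to 8.92 to 18.8 normalized counts in KO and 6.66 to 16.2 in WT tumors, and the defining markers *Ambp* and *Crp* had at most 4.02 and 6.29.

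Genes that interferon gamma induces were higher alongside the complement components. Of 14 such genes, 12 were higher and 0 lower at an adjusted p under 0.05 (limma), beside 31.3% higher and 9.74% lower over all genes. Their median log2 difference was 0.81, beside 0.24 over all genes. Their sums were 22549.6 to 36553 normalized counts in KO and 11678 to 17873 in WT tumors. Examples are *Gbp2b*, which encodes a guanylate-binding protein, at 2.46, *Irf1* at 0.91 and *Psmb8*, an immunoproteasome subunit, at 0.79. Of 9 acute phase and IL-6 response genes, 3 were higher and 0 lower, a count of higher genes near the panel share of 31.3%. These 3 were *Cebpb*, which encodes a C/EBP factor, at 1.11, *Socs3* at 0.69 and *Stat3* at 0.31. The median of the 9 was 0.21, beside 0.24 over all genes. Their sums were 3050 to 5451 in KO and 2981 to 3346 in WT tumors. The acute phase gene *Lcn2* did not pass (0.21, limma adjusted p = 0.78). The part of either response in the complement values was not tested.

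**Figure D3:**
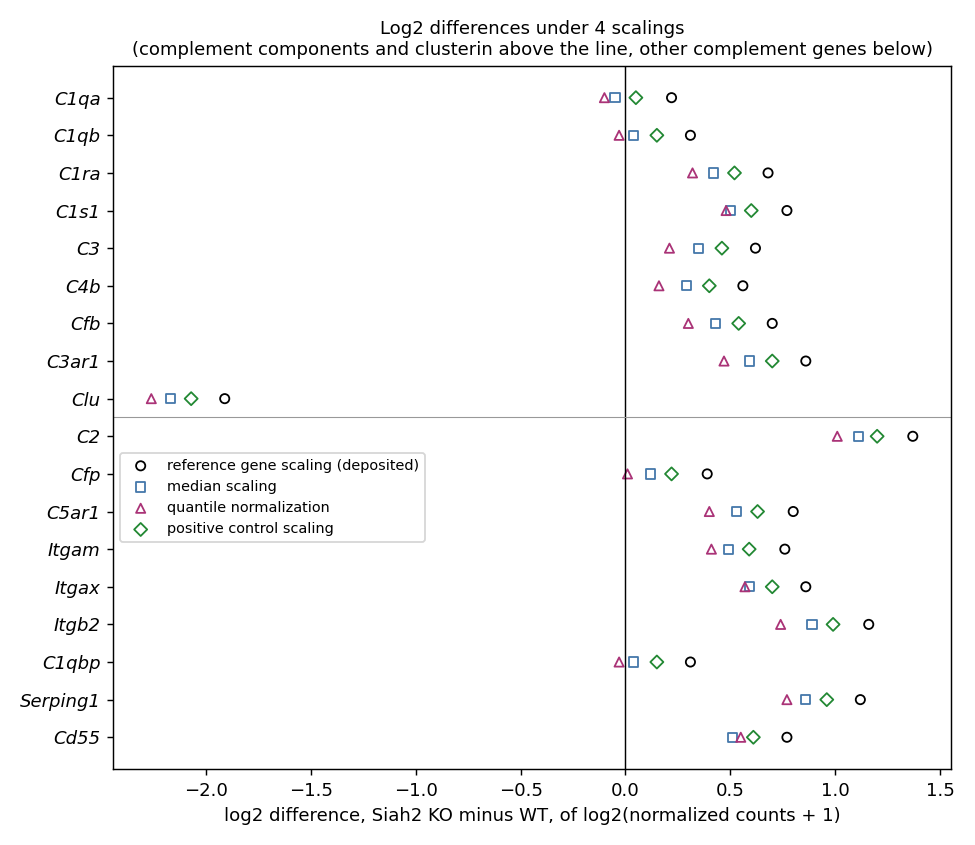
Log2 difference, Siah2 KO minus WT (horizontal axis), of the 9 genes described (above the line) and other complement genes called (below it), with the deposited reference gene scaling and 3 other scalings, 1 symbol each. Every symbol of *Clu* lies left of 0, whereas *C1qa*, *C1qb* and *C1qbp* have symbols on both sides.

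How much of each difference belongs to the scaling of the tumors was examined with 3 further scalings: to the median of the endogenous genes, by quantile normalization and by the positive control probes added to each assay. The median scaling moved the median log2 difference of all genes from 0.24 to -0.01. *Clu* stayed lower throughout, at -2.17, -2.26 and -2.07. *C1ra*, *C1s1*, *C3*, *C4b*, *Cfb* and *C3ar1* stayed above 0 under all 4 scalings, with *C3ar1* at 0.86, 0.59, 0.47 and 0.70 and *C4b* at 0.56, 0.29, 0.16 and 0.40 (reference genes, median, quantile and positive controls). *C1qa* fell to -0.05 and -0.10 with median scaling and quantile normalization and *C1qb* to -0.03 with the latter, so no direction can be given for the C1q chains. Of the other complement genes, *C2*, *Itgb2* and *Serping1* passed under all 4 scalings, and of the 9 genes only *Clu* did.

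Whether the 9 genes varied together from tumor to tumor within a genotype is a question that the selection did not use. Each gene's log2 values were centred on the mean of its genotype, and all 36 pairs were compared over the 10 tumors by Pearson's r and Spearman's rho, with exact permutation p from 14400 orders within genotype, two-sided and adjusted over the 36 pairs. By r 8 pairs passed an adjusted p of 0.05, all with r above 0, and by rho 6. With this scaling the 8 components also correlated with the rest of the panel, at a median r from 0.33 to 0.47 over 593 genes. The share of pairs passing over the whole panel was not computed. The count is therefore not read as particular to these genes. The C1q chains moved together most closely, with *C1qa* and *C1qb* at r = 0.96 (exact permutation p = 5.6e-04, adjusted 0.019) and rho = 0.85 (exact permutation p = 0.0051, adjusted 0.038). Without the 2 tumors farthest from the median of *C1qa* r was 0.91.

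Both C1q chains also moved with *Cfb* and *C3ar1*. For *C1qb* and *Cfb* r was 0.89 (exact permutation p = 0.0012, adjusted 0.019) and rho 0.89 (p = 0.0022 by permutation, adjusted 0.038). For *C1qb* and *C3ar1* r was 0.86 (exact permutation p = 0.0026, adjusted 0.019) and rho 0.85 (p = 0.0050 by permutation, adjusted 0.038). *C1qa* and *Cfb* were at r = 0.88 (exact permutation p = 0.0019, adjusted 0.019) and rho = 0.82 (p = 0.0058 by permutation, adjusted 0.038). Of *C1qa* and *C3ar1* only r passed, at 0.79 (exact permutation p = 0.011, adjusted 0.048), and rho was 0.60 (p = 0.076 by permutation, adjusted 0.18). Without the 2 farthest tumors these 4 values of r lay between 0.71 and 0.86.

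A second set of pairs joined *C1ra* to the components downstream of it. For *C1ra* and *C4b* r was 0.90 (exact permutation p = 0.0026, adjusted 0.019) and rho 0.84 (p = 0.0064 by permutation, adjusted 0.038). For *C1ra* and *C3* r was 0.91 (exact permutation p = 0.0046, adjusted 0.028), whereas rho was 0.72 and did not pass (p = 0.025 by permutation, adjusted 0.096). *C3* and its receptor gene *C3ar1* were at r = 0.78 (exact permutation p = 0.0080, adjusted 0.041) and rho = 0.83 (p = 0.0044 by permutation, adjusted 0.038). Without the 2 farthest tumors, WT replicate 5 and KO replicate 6 for both pairs of *C1ra*, r was 0.74 with *C4b* and 0.76 with *C3*, and for *C3* and *C3ar1*, without KO replicates 5 and 6, it was 0.78. The neighbors *C1ra* and *C1s1*, whose proteins act as a pair, were at r = 0.69 and did not pass (adjusted permutation p = 0.15).

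*Clu* stood apart from the others. Its 8 pairs ran from -0.44 with *C3* to 0.13 with *C1qa*, and 0 of the 8 passed, while the 28 pairs without it ran from 0.19 to 0.96 with a median of 0.67. A scaling error of a tumor moves all of its genes together, so these values depend on the scaling. With median scaling 2 of 36 pairs passed, *C1qa* with *C1qb* (r = 0.93) and *C1ra* with *C4b* (r = 0.87), each at an adjusted permutation p of 0.029, and 0 passed with quantile normalization. With positive control scaling 34 passed, among them pairs of *Clu*, whose r then ran from 0.45 to 0.88. The count also rested on single tumors: it was 0 without WT replicate 4, without WT replicate 5 or without KO replicate 6, 1 without KO replicate 5, 3 without KO replicate 3, and 5 without KO replicate 1 or KO replicate 2.

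**Figure D4:**
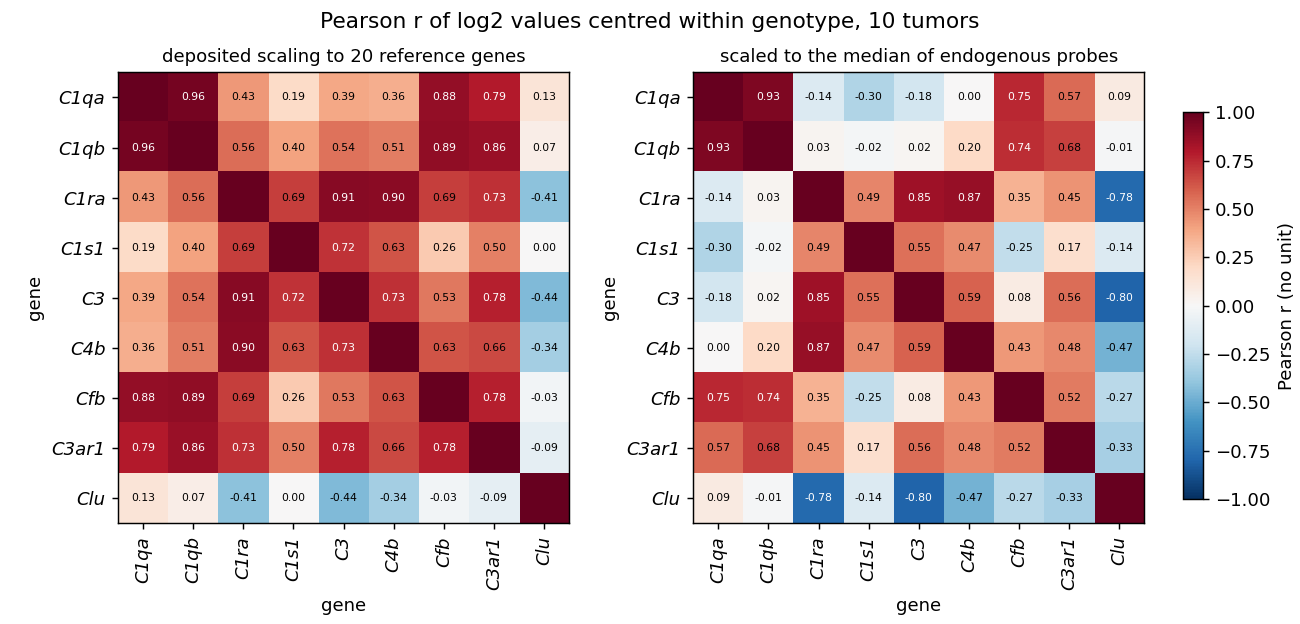
Pearson's r (color, no unit) between the 9 genes over 10 tumors, from log2 values centred within genotype, with the deposited scaling (left) and median scaling (right). *C1qa* and *C1qb* share r = 0.96 and 0.93, *C1ra* and *C4b* 0.90 and 0.87, and the row of *Clu* holds no r above 0.13 in either panel.

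The genes of the panel most like each of the 9 within genotype are given as a description, over 593 other genes with a mean of at least 20. For *C1qa* they were *Ctsw* (r = 0.98), a protease of cytotoxic lymphocytes, *Dll4* (0.97), a Notch ligand, and *Fcer1g* (0.96), the Fc receptor gamma chain. *C1qb* had *Ctsw* (0.96), *Dll4* (0.95) and *Klrd1* (0.94), an NK cell receptor. *Cfb* had *Fcer1g* (0.96), the chemokine *Ccl5* (0.94) and *Cyfip2* (0.93), and *C3ar1* had *Tab1* (0.92), *Trem2* (0.92) and *Cd84* (0.90). *C1ra* and *C3* shared their nearest genes, *Hsd11b1* (0.95 and 0.94), which encodes an enzyme of glucocorticoid activation, *Lcn2* (0.95 and 0.93), which encodes lipocalin 2, and *Il18r1* (0.94 for both). *C4b* had *Ep300* (0.92), *Slc7a11* (0.91) and *Pycard* (0.91), and *C1s1* had *App* (0.93), *Cx3cl1* (0.91) and *Stat3* (0.91).

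*Clu* was nearest to *Erbb2* (0.86), *Axl* (0.82), both receptor tyrosine kinases, and *Hmgb1* (0.70). The median r over the 593 genes was between 0.33 and 0.47 for the 8 components and -0.07 for *Clu*. With median scaling these medians lay near 0, while *Hsd11b1*, *Lcn2* and *Il18r1* were still the nearest to both *C1ra* (0.94, 0.92 and 0.88) and *C3* (0.92, 0.90 and 0.90), and *Erbb2* was still the nearest to *Clu* (0.93). These values share their tumors and scaling factors, and they are the highest picked from 593.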

How the data were processed

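RNA of 10 YUMMER1.7 tumors (5 Siah2 WT, replicates 2 to 6; 5 Siah2 KO, replicates 1, 2, 3, 5 and 6) was measured on the NanoString panel and grouped by the sample labels. Each sample is labelled as 1 tumor, and p-values measure the spread between these tumors. The day is 11 by the labels and differs in a legend of the study.

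The authors deposited a signal for each of 784 probes, namely counts normalized to the geometric mean of 20 reference genes in nSolver, after leaving out samples with outlying positive controls. From the values, a background constant had been taken off each count and values under 1 set to 1 ahead of the scaling. The methods name neither step, and raw counts could not be recovered. The 14 control probes were left out, which leaves 770 genes. Values near the floor are limited by this depth.

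Differences of log2(value + 1) were taken as Siah2 KO minus WT and tested in R 4.3.3 by limma 3.58.1 (functions lmFit and eBayes), two-sided and adjusted by Benjamini-Hochberg over 770 genes at 0.05. Pairs, nearest genes and motifs (both strands) were computed in Python 3.11.15 with numpy 2.4.6 and scipy 1.17.1. The scripts were tested on simulated data. The 9 genes, the other complement genes, the lists of macrophage, fibroblast, endothelium, neutrophil, liver, melanoma or melanocyte, interferon gamma and acute phase genes, and the tests were chosen with earlier results of these data known. Named are the 9 genes, other complement genes that passed with a mean of at least 20, the 3 nearest genes of each, and list genes with the defining markers. Genes named as not passing or absent account for the complement list. Of the complement list, 1 gene is not reported here. Alternatives were median, quantile and positive control scaling, a pseudocount of 10, a filter at a mean of 20, the methods' t-test on the log2 values, the replicate number as a block, and leaving out each tumor in turn.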

Additional observations from a re-analysis of the deposited data

Results flagged for a closer look

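In WT tumors *C3* of replicate 5 was the highest, at 869.5 normalized counts, and its gap to the next tumor took 0.778 of the range of the group, above Dixon's critical value of 0.71 for 5 samples. Of 38 groups of values looked at in this way, 1 was marked, and chance marks about 1 in 20. The same tumor had the highest values of the WT group for *C1qa*, *C1qb*, *C1ra*, *C4b*, *Cfb* and *C3ar1*, its factor, 1.32, was the highest of the WT tumors, and its positive controls were the lowest of all 10. The part of the factor in these values was not tested.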

How the results depend on the processing

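The median log2 difference of the 9 genes was 0.62, and 0.35 with median scaling and 0.21 with quantile normalization. The number of the 9 that passed was 5, and 3 with quantile normalization and 1 with positive control scaling. It was 6 with a pseudocount of 10, 7 with the filter at a mean of 20 and 5 with the methods' t-test. Of the other complement genes 10 passed, and 4 with positive control scaling. Over all genes 316 passed, and 95 with positive control scaling. Of the calls 76.3% were higher in KO tumors, beside 51.7% with median scaling (163 higher, 152 lower) and 45.8% with quantile normalization (153 higher, 181 lower). Values that changed sign were *C1qa* (-0.05 with median scaling, -0.10 with quantile normalization), *C1qb* (-0.03 with quantile normalization) and *C1qbp* (-0.03 with quantile normalization). The cause was not tested. Of the 36 pairs 8 passed, and 2 with median scaling, 0 with quantile normalization and 34 with positive control scaling.

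With 1 tumor left out in turn the median of the 9 genes ran from 0.54 to 0.76, the number that passed from 5 to 7, that of other complement genes from 8 to 10, that of all genes from 268 to 334, and that of pairs from 0 to 7. Over 18 alternatives, 149 of 162 values of the 9 genes moved by less than the spread between tumors. Another 10 moved by more than that without a change of sign, most of them toward 0, and 3 changed sign. All of these larger moves came with median scaling or quantile normalization, where most of the 9 genes moved. The filter on the mean and the t-test leave the log2 differences as they are, so their values could not move. Of 180 values of the 10 other complement genes, 150 kept their call, 29 lost it and 1 changed sign.

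The replicate numbers are shared by 4 pairs of tumors. The correlation of same-numbered tumors was 0.0353, 0.0499, 0.167 and 0.349, so the numbers were not taken to pair the tumors, and 2 of the 4 KO tumors correlated best with the WT tumor of their own number. In those 8 tumors, with the replicate number as a block, 4 of the 9 genes, 6 other complement genes and 235 genes in all passed, beside 3, 7 and 232 in the same tumors without the block. Most terminal components lay near the floor, where differences cannot be seen.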
